A study of Mus musculus with 9 samples.

Results

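The genes described here are 4 receptor genes and 3 peptide precursor genes of the opioid family, nociceptin and its receptor included: Oprm1 (mu receptor), Oprd1 (delta), Oprk1 (kappa) and Oprl1 (nociceptin receptor), and Penk (proenkephalin), Pdyn (prodynorphin) and Pnoc (prepronociceptin). They were chosen by name, as the 7 rows with these symbols in a table of read counts per gene. Of the 7, 6 had a row among the 18956 symbols of the table, and all 6 passed the filter on low counts that left 18194 genes for testing. Oprd1 had no row, and it was not analysed here. The table holds no symbol with a zero in any library.

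The libraries were bulk RNA from tissue labelled as the anterior paraventricular nucleus of the thalamus of BALB/c mice, in 3 groups of 3. The first group was exposed to 5 days of social defeat stress and given SHNK, which is (2S,6S)-HNK, a hydroxynorketamine formed from ketamine (SHNK below). The second group had the same defeat and was given saline (stressed saline). The third was not stressed and was given saline (non-stressed saline). No transgene or deletion is named in the labels, which give no age, sex, dose or time of tissue collection and do not say how many animals stand behind a library. The p-values therefore measure only the spread between these libraries, which may be technical.

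Opioid peptides are cut from long precursors by prohormone convertases, packed into dense core vesicles and released to act on receptors that couple to inhibitory Gi and Go proteins. These receptors open inward rectifier potassium channels, close presynaptic calcium channels and lower adenylyl cyclase activity, so their usual effect is to quieten a neuron. Enkephalins act on mu and delta receptors, dynorphins mainly on the kappa receptor, and nociceptin on its own receptor. Midline thalamic nuclei carry opioid receptors and receive peptide-containing fibres, whose precursor mRNA stays in the distant cell body.

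Total counts per library ran from 32307869 to 51569143. Levels are given as CPM, a count scaled to its library's total after TMM, which corrects that total for library composition. All 8 genes listed for midline thalamus neurons were present, and their summed level was 3175 to 3539 CPM in SHNK, 3071 to 3677 CPM in stressed saline and 3315 to 3755 CPM in non-stressed saline. Calb2 was the largest part of this sum, averaging 1838, 2096 and 2033 CPM in these groups. In SHNK against stressed saline 1 of the 8 was higher at an adjusted p under 0.05 (edgeR), as were 2.45% of all tested genes. At an unadjusted p under 0.05 there were 4 of the 8, where 23.3% of all tested genes passed. Lef1 averaged 67.7 CPM in SHNK and 51.5 CPM in stressed saline, and Drd2 4.88 and 6.69 CPM. Genes of the habenula, which borders this nucleus, moved far more, as 10 tested genes of 13 listed summed to 47.1 to 53.7 CPM in SHNK, 250.1 to 783 CPM in stressed saline and 80.7 to 145 CPM in non-stressed saline. The habenular markers Chrnb3, Chrnb4 and Slc18a3 had no row. Other lists moved too. The sum of 9 ependymal genes was 83.1 to 128 CPM in SHNK, 152 to 236.5 CPM in stressed saline and 75.7 to 96.5 CPM in non-stressed saline. That of 8 astrocyte genes was 1575 to 1604 CPM in SHNK, 1874 to 2318 CPM in stressed saline and 1953 to 2028 CPM in non-stressed saline. In stressed saline against non-stressed saline 2 of these 8 were higher at an adjusted p under 0.05 (edgeR), as were 1.15% of all tested genes. Gfap averaged 75.1 and 26.3 CPM in these 2 groups and Aqp4 103 and 63.3 CPM. Slc1a3 went the other way (690 and 725 CPM), and 4 of the 8 log2 fold changes were above 0. In SHNK against stressed saline 6 of the 8 astrocyte genes were lower at an adjusted p under 0.05 (edgeR), as were 3.96% of all tested genes. There 0 of the 8 log2 fold changes were above 0. The sum of 5 hippocampal genes was 111 to 126 CPM in SHNK, 145 to 160 CPM in stressed saline and 128 to 149 CPM in non-stressed saline. In bulk tissue, fewer cells of a type and less RNA per cell cannot be told apart.

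The nociceptin receptor dominated the transcripts of the 3 opioid receptors that had a row, Oprd1 having none. As TPM, which divides counts by gene length and scales each library to the same total, Oprl1 averaged 64.3 ± 6.75 TPM over the 9 libraries (SD, n = 9) with the union of exons as length. Oprk1 averaged 5.31 ± 0.92 TPM and Oprm1 1.29 ± 0.31 TPM on the same scale. Oprl1 made up 88.4% to 93.0% of the summed TPM of these 3 receptors in every library, and Oprm1 1.01% to 2.39%. With the median length of the coding transcripts instead, Oprl1 made up 77.3% to 86.0% and Oprm1 2.77% to 6.20%.

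Among the precursors Penk was the most abundant, with a level of 27.3 ± 10.9 TPM (SD, n = 9, union of exons), and made up 62.7% to 80.8% of the summed precursor TPM. Pnoc averaged 8.22 ± 2.45 TPM and Pdyn 1.72 ± 0.75 TPM. The lowest Oprl1 library (54.9 TPM) was above the highest Penk library (49.5 TPM), and the lowest Penk library (17.4 TPM) was above the highest Pnoc (12.2 TPM) and Oprk1 (6.66 TPM) libraries. Below Penk the order was not settled. Pnoc was above Oprk1 with union exon lengths, whereas with median transcript lengths Oprk1 averaged 9.18 ± 1.55 TPM and Pnoc 4.69 ± 1.41 TPM, and their ranges over libraries overlapped both ways. Pdyn and Oprm1 also changed places with the length used, at 1.69 ± 0.74 TPM and 3.25 ± 0.76 TPM with median transcript lengths.

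**Figure D1:**
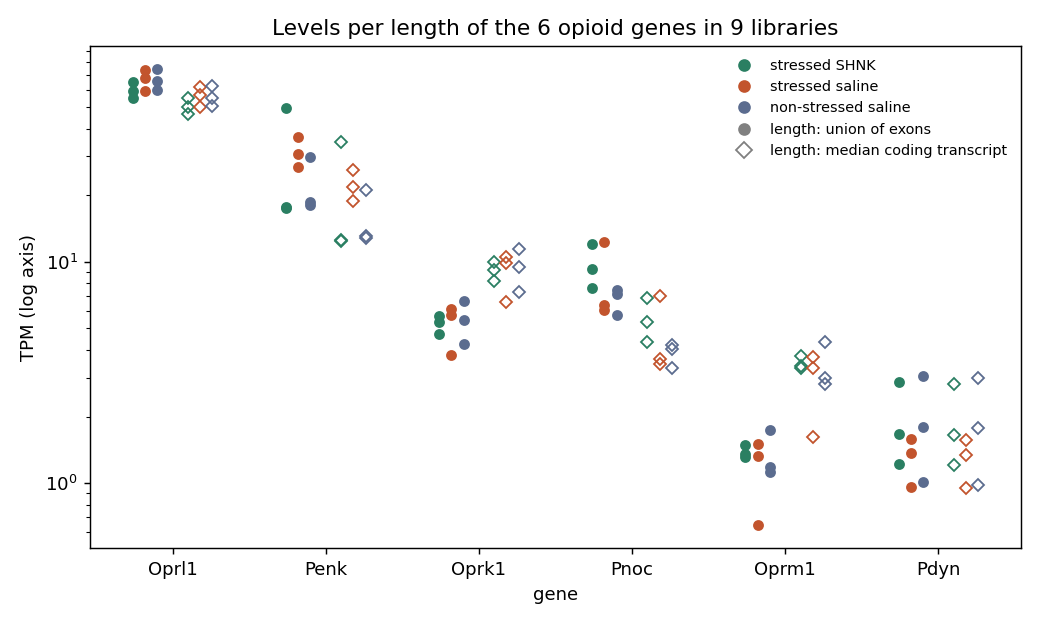
Level per length (TPM, log axis) of the 6 measured opioid genes in each of the 9 libraries, coloured by group, with filled circles for union exon lengths and open diamonds for median coding transcript lengths. Oprl1 lies above Penk in every library with both lengths, while the order of Oprk1 and Pnoc and that of Oprm1 and Pdyn depend on the length.

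In the 3 comparisons 0 of the 6 measured genes passed an adjusted p of 0.05 (edgeR's quasi-likelihood test, Benjamini-Hochberg over 18194 genes), and 0 passed with DESeq2 or limma voom. Over all tested genes the same rule called 1.17% for stressed saline against non-stressed saline, 6.41% for SHNK against stressed saline and 0.0055% for SHNK against non-stressed saline. At an unadjusted p under 0.05 the opioid genes numbered 0, 0 and 1 in these comparisons, the 1 being Pnoc, where the shares of all tested genes were 9.45%, 23.3% and 18.3%. When all 3 groups were tested at once, their adjusted p ran from 0.364 for Pnoc to 0.915 for Oprk1, while 4.88% of all tested genes passed. The groups did not overlap for 0 of the 6 genes in stressed saline against non-stressed saline, where this held for 12.9% of all tested genes (7.36% higher, 5.53% lower). It held for 0 of the 6 in SHNK against stressed saline (30.4% of all tested genes) and for 1, Pnoc, in SHNK against non-stressed saline (21.3%). The comparisons share groups, so a gene's 3 values are not independent.

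**Figure D2:**
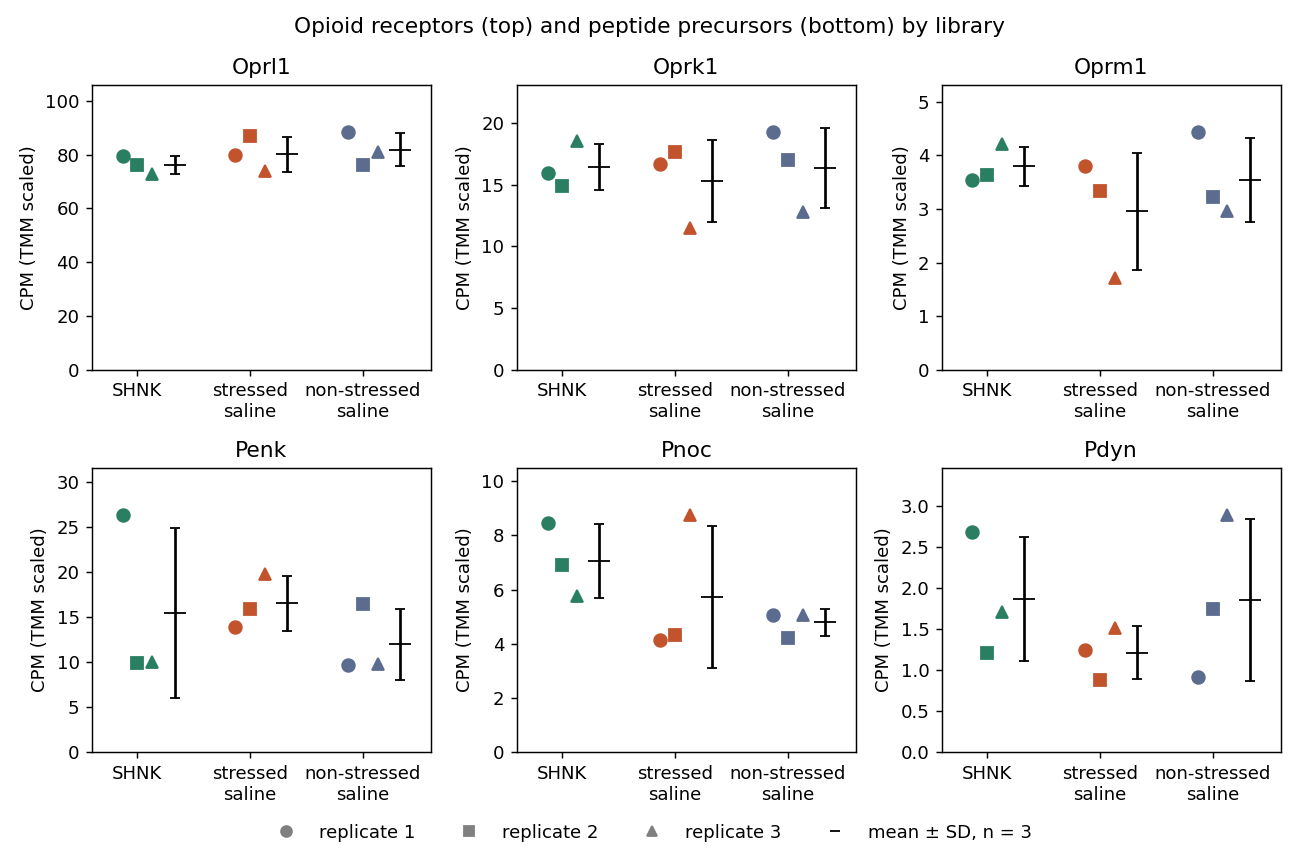
CPM after TMM scaling (a correction for library composition) in each library for the receptors Oprl1, Oprk1 and Oprm1 and the precursors Penk, Pnoc and Pdyn, with SHNK, stressed saline and non-stressed saline from left to right. Bars give the mean and SD of 3 libraries, and the groups overlap in every gene except for Pnoc in SHNK against non-stressed saline.

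Oprl1, the receptor for nociceptin, lies on chromosome 2 (181715016 to 181720985, plus strand, GRCm38). It had 79.5, 76.3 and 72.8 CPM in SHNK libraries 1 to 3, 79.9, 86.8 and 73.9 CPM in stressed saline, and 88.3, 76.1 and 81.1 CPM in non-stressed saline. Each pair of groups overlapped in part, and the highest library was only 1.21 times the lowest. Its log2 fold change was -0.030 ± 0.088 in stressed saline against non-stressed saline (standard error; adjusted p = 0.988) and -0.074 ± 0.088 in SHNK against stressed saline (adjusted p = 0.670). The unadjusted 95% interval of the fold change ran from 0.859 to 1.12 in the first comparison and from 0.833 to 1.08 in the second. In SHNK against non-stressed saline it ran from 0.816 to 1.06 (adjusted p = 0.579). These were the narrowest intervals among the 6 genes.

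Oprk1, the receptor for dynorphins, lies on chromosome 1 (5588466 to 5606131, plus strand). It had 15.9, 14.9 and 18.5 CPM in SHNK, 16.7, 17.6 and 11.5 CPM in stressed saline, and 19.2, 17.0 and 12.8 CPM in non-stressed saline. Replicate 3 was the lowest library in both saline groups and the highest in SHNK, and the groups overlapped. The fold change in stressed saline against non-stressed saline was 0.937 (unadjusted 95% interval 0.724 to 1.21; adjusted p = 0.977). In SHNK against stressed saline it was 1.07 (0.829 to 1.39; adjusted p = 0.781), and against non-stressed saline its log2 fold change was 0.0062 ± 0.17 (fold interval 0.777 to 1.30; adjusted p = 0.990).

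Oprm1, the main target of morphine and 1 of the receptors of enkephalins, lies on chromosome 10 (6758506 to 7038198, plus strand) and is known in mice for dense expression in the medial habenula. Its counts were low, at 61 to 202 reads a library. It had 3.53, 3.64 and 4.21 CPM in SHNK, 3.80, 3.34 and 1.72 CPM in stressed saline, and 4.43, 3.23 and 2.97 CPM in non-stressed saline. One library, stressed saline replicate 3, stood below the other 8, and the other 2 of its group lay within the range of non-stressed saline. The log2 fold change was -0.26 ± 0.26 in stressed saline against non-stressed saline (adjusted p = 0.904) and 0.0083 ± 0.22 without that library (adjusted p = 0.997). In SHNK against stressed saline it was 0.35 ± 0.26 (adjusted p = 0.460), and 0.085 ± 0.22 without that library (adjusted p = 0.871). The library was picked as the most extreme, so a smaller standard error follows from the choice.

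Its mean was 3.79 ± 0.36 CPM in SHNK, 2.95 ± 1.09 CPM in stressed saline and 3.54 ± 0.78 CPM in non-stressed saline (SD, n = 3 each). In SHNK replicates 1 to 3 the habenula sum was 53.4, 47.1 and 53.7 CPM beside 3.53, 3.64 and 4.21 CPM of Oprm1. In stressed saline it was 250.1, 783 and 458 CPM beside 3.80, 3.34 and 1.72 CPM of Oprm1, and in non-stressed saline 84.4, 80.7 and 145 CPM beside 4.43, 3.23 and 2.97 CPM. The part of habenular tissue in these values was not tested. The fold change intervals of Oprm1 were wide, from 0.567 to 1.24 in stressed saline against non-stressed saline and from 0.864 to 1.88 in SHNK against stressed saline. In SHNK against non-stressed saline the fold change was 1.07 (0.724 to 1.57; adjusted p = 0.891). Oprm1 shares 96 of its 8037 exon bases with Ipcef1 on the opposite strand, and whether the counting used strand is not given in the sources used here.

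Penk encodes the precursor of Met- and Leu-enkephalin and lies on chromosome 4 (4133531 to 4138819, minus strand). It had 26.3, 9.96 and 10.1 CPM in SHNK, 13.9, 15.9 and 19.8 CPM in stressed saline, and 9.65, 16.5 and 9.79 CPM in non-stressed saline. SHNK replicate 1 was the highest of the 9 libraries, at 2.64 times the lowest of its group, and the other SHNK libraries lay with the lower non-stressed ones. The log2 fold change was 0.47 ± 0.32 in stressed saline against non-stressed saline (adjusted p = 0.787) and -0.091 ± 0.32 in SHNK against stressed saline (adjusted p = 0.899). Without SHNK replicate 1 the SHNK value against stressed saline was -0.72 ± 0.22 (adjusted p = 0.0663), and against non-stressed saline -0.24 ± 0.22 (adjusted p = 0.607) in place of 0.38 ± 0.32 (adjusted p = 0.576). That library was picked as the most extreme, so a smaller standard error follows from the choice. Over all alternatives the value against stressed saline ran from -0.72 to 0.15. Of the exon bases of Penk, 14.3% are shared with the transcript A830012C17Rik on the opposite strand, which has no row in the table.

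Pnoc, the nociceptin precursor, lies on chromosome 14 (65400673 to 65425472, minus strand). It had 8.47, 6.92 and 5.78 CPM in SHNK, 4.14, 4.33 and 8.76 CPM in stressed saline, and 5.06, 4.23 and 5.08 CPM in non-stressed saline. All 3 SHNK libraries were above all 3 non-stressed ones, which was so, as higher, for 9.83% of all tested genes in that comparison. The means were 7.06 ± 1.35 CPM in SHNK and 4.79 ± 0.49 CPM in non-stressed saline (SD, n = 3 each), a log2 fold change of 0.56 ± 0.26. It did not pass over all genes (unadjusted p = 0.0464, adjusted p = 0.263 by edgeR). Stressed saline straddled both groups, since replicate 3 was the highest library of all and the other 2 were near the lowest. The fold change was 1.19 in stressed saline against non-stressed saline (0.810 to 1.74; adjusted p = 0.906) and 1.24 in SHNK against stressed saline (0.851 to 1.81; adjusted p = 0.510). Without stressed saline replicate 3 these became log2 fold changes of -0.18 ± 0.20 (adjusted p = 0.876) and 0.74 ± 0.20 (adjusted p = 0.0567). This library, too, was picked as the most extreme, so a smaller standard error follows from the choice. Over all alternatives the second value ran from 0.12 to 0.74.

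Pdyn, the dynorphin precursor, lies on chromosome 2 (129686565 to 129699844, minus strand) and was the least abundant member in CPM, with 41 to 128 reads a library. It had 2.69, 1.21 and 1.71 CPM in SHNK, 1.25, 0.878 and 1.52 CPM in stressed saline, and 0.921, 1.75 and 2.89 CPM in non-stressed saline. Stressed saline held the lowest library and non-stressed saline the highest, 3.30 times apart, and each pair of groups overlapped. The log2 fold change was -0.61 ± 0.40 in stressed saline against non-stressed saline (adjusted p = 0.754), 0.63 ± 0.39 in SHNK against stressed saline (adjusted p = 0.364) and 0.016 ± 0.39 in SHNK against non-stressed saline (adjusted p = 0.988). As folds, the first interval ran from 0.362 to 1.18 and the second from 0.861 to 2.78, so changes well over 2-fold lay inside them.

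**Figure D3:**
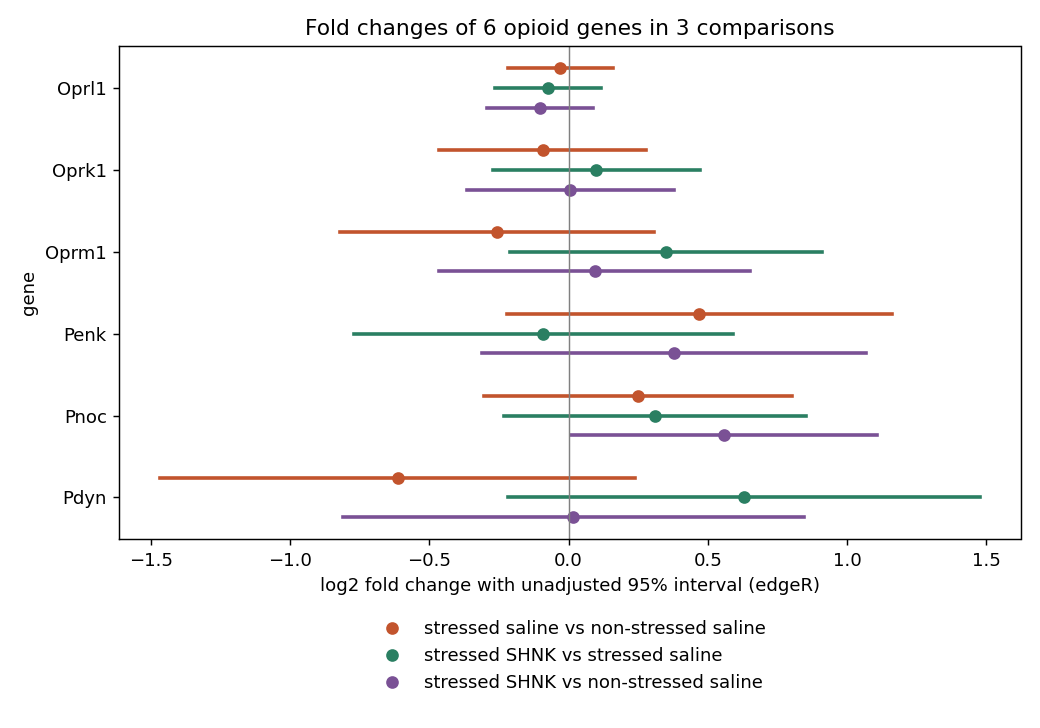
Log2 fold changes (points) with unadjusted 95% intervals (lines) of the 6 measured opioid genes in the 3 comparisons, from edgeR. Every interval spans 0 except that of Pnoc in SHNK against non-stressed saline, which starts just above 0, and the intervals are narrowest for Oprl1 and widest for Pdyn.

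The precursors varied more between libraries of 1 group than genes of like abundance. The SD of log2 CPM within groups was 0.55 for Penk, which exceeded that of 99.8% of the 500 tested genes nearest to it in mean level (their median 0.15). It was 0.39 for Pnoc (94.6%, median 0.22) and 0.61 for Pdyn (93.6%, median 0.34). Oprk1 and Oprm1 were also variable, with an SD of 0.28 (94.8%, median 0.15) and 0.40 (89.8%, median 0.25). Oprl1 was not, with an SD of 0.098 that exceeded that of 38.6% of its neighbours.

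Much of this spread lay in single libraries. In SHNK replicate 1 all 3 precursors were at the top of their group, by 0.93 (Penk), 0.59 (Pdyn) and 0.28 (Pnoc) above the group mean on the log2 scale. In stressed saline replicate 3 all 3 precursors were again highest (Pnoc by 0.69), and all 3 receptors were lowest, with Oprm1 at -0.69 and Oprk1 at -0.38. In non-stressed saline replicate 1 the 3 receptors were at the top of their group while Pdyn and Penk were at the bottom, with Pdyn at -0.83.

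**Figure D4:**
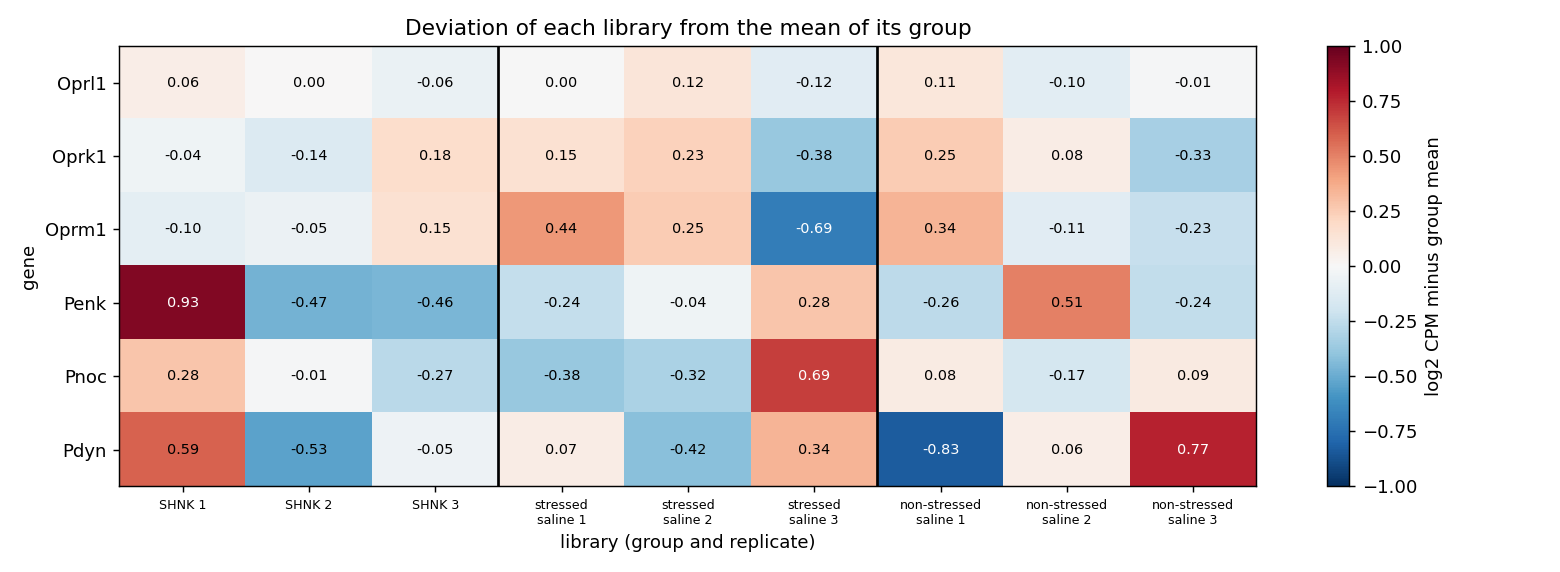
Log2 CPM of each library minus the mean of its group, for 6 genes (rows) and 9 libraries (columns, SHNK, stressed saline, non-stressed saline). SHNK replicate 1 and stressed saline replicate 3 are positive for the 3 precursors, and stressed saline replicate 3 is negative for the 3 receptors.

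SHNK replicate 1 and stressed saline replicate 3 also had the highest summed level of markers of GABAergic neurons, cells that in many brain regions express Penk, Pdyn or Pnoc. Of 9 genes listed, 3 were tested (Gad1, Gad2 and Lhx6), and the others were not analysed here. Their sum ran from 22.5 to 62.4 CPM in SHNK, 19.8 to 49.0 CPM in stressed saline and 16.9 to 27.5 CPM in non-stressed saline. Gad1, which makes GABA, had 19.4, 6.56 and 3.91 CPM in SHNK, 11.0, 2.53 and 20.2 CPM in stressed saline, and 4.89, 7.45 and 3.90 CPM in non-stressed saline. The 2 highest libraries were SHNK replicate 1 and stressed saline replicate 3, as for Pnoc and Penk. Lhx6, a factor of some forebrain interneurons, was also highest in SHNK replicate 1 (1.93 CPM), but stressed saline replicate 3 (0.450 CPM) was below stressed saline replicate 1 (0.594 CPM) and SHNK replicate 2 (0.517 CPM). Pdyn was highest in non-stressed saline replicate 3, where the GABAergic sum was at its lowest (16.9 CPM). Of 9 hypothalamic genes listed, 6 were tested. Their sum was 14.6 CPM in SHNK replicate 1, 12.8 CPM in non-stressed saline replicate 2 and 5.44 to 9.51 CPM in 6 other libraries. Stressed saline replicate 3, at 9.88 CPM, was little above SHNK replicate 2 (9.51 CPM). The genes in this sum differed, as Avp (6.51 CPM) and Oxt (2.13 CPM) were highest in non-stressed saline replicate 2. In stressed saline replicate 3, Trh (3.91 CPM), Avp (2.82 CPM) and Oxt (1.07 CPM) were highest of their group. Pmch (1.80 CPM) and Agrp (0.141 CPM) were lowest there, and Hcrt (0.141 CPM) lay between. The part of such cells in the precursor values was not tested.

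Genes with the most similar profile were sought for the 4 members whose log2 CPM spanned at least 1, by the root mean square difference of centred log2 CPM over the 9 libraries. They are the closest of 12548 genes, and some likeness comes from that choice alone. Oprm1, whose own root mean square about its mean was 0.37, was closest to AB010352 (0.14), the orexin receptor Hcrtr2 (0.15) and Arl15 (0.15). Pnoc (0.39) was closest to the ubiquitin ligase Rnf125 (0.14), Pdlim3 (0.19) and Zmym1 (0.23). Penk (0.49) was matched less closely, by Cyp2j12 (0.26), the interferon-induced Gbp2 (0.28) and the fibroblast proteoglycan gene Dcn (0.28), and Pdyn (0.56) by Hsp25-ps1 (0.33), the postsynaptic scaffold gene Homer3 (0.35) and Efna3 (0.36). Hcrtr2 had 4.10, 4.51 and 6.08 CPM in SHNK, 5.58, 5.44 and 2.82 CPM in stressed saline, and 6.25, 4.60 and 4.39 CPM in non-stressed saline, so it shared with Oprm1 the low stressed saline replicate 3.

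Around the opioid genes, 60 genes of precursor processing, peptide breakdown, Gi and Go proteins, effectors and regulators were tested, of 61 listed (63 symbols, with 2 kinases under 2 symbols each). In stressed saline against non-stressed saline 2 rose and 0 fell (edgeR, over all genes), where 1.15% of all tested genes rose. In SHNK against stressed saline 4 rose and 4 fell, where 2.45% of all tested genes rose and 3.96% fell. In SHNK against non-stressed saline 0 passed with edgeR (0.0055% of all tested genes) or limma voom, and DESeq2 called 2 higher and 5 lower, with 989 calls over all genes. At an unadjusted p under 0.05 there were 15, 26 and 18 of the 60 in the 3 comparisons in this order. Each is a larger share than that of all tested genes (9.45%, 23.3% and 18.3%), but the lists were chosen with earlier results of these data known. The median log2 fold change of the 60 genes was -0.065, -0.072 and -0.13 in the 3 comparisons, beside -0.017, -0.0091 and -0.0049 over all tested genes. Pomc, the precursor of beta-endorphin, averaged 3.65 ± 0.18 CPM in SHNK, 4.05 ± 1.06 CPM in stressed saline and 3.79 ± 0.76 CPM in non-stressed saline (SD, n = 3 each; adjusted p from 0.743 to 0.981).

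Of 11 genes of precursor processing and peptide storage, edgeR called Pcsk1 higher with stress and Cadps2 lower with SHNK. At an unadjusted p under 0.05 there were 3, 8 and 3 of the 11 in the 3 comparisons, beside 9.45%, 23.3% and 18.3% of all tested genes. Pcsk1, the prohormone convertase that starts the cutting of opioid precursors, had 8.34, 8.87 and 10.5 CPM in stressed saline and 3.95, 5.20 and 3.90 CPM in non-stressed saline. The groups did not overlap, as for 12.9% of all tested genes, and the fold change was 2.13 (log2 1.09 ± 0.24, adjusted p = 0.0386). The call was lost without any 1 of 6 libraries (non-stressed saline replicates 1 to 3, stressed saline replicates 2 and 3, SHNK replicate 3; adjusted p from 0.0565 to 0.154), with log2 fold changes of 0.99 to 1.23 over the 9 fits. It was also lost with limma voom (adjusted p = 0.0735) and with no filter on low counts (adjusted p = 0.0531). In SHNK the convertase was at 7.70, 3.76 and 4.48 CPM (-0.80 ± 0.23 against stressed saline, adjusted p = 0.0567), again with SHNK replicate 1 on top. This fall passed with DESeq2 (adjusted p = 0.00886), with limma voom (adjusted p = 0.00797) and, with edgeR, without SHNK replicate 1 (-1.16, adjusted p = 0.0061). Leaving out SHNK replicate 2 or 3 instead gave -0.59 and -0.69 (adjusted p = 0.212 and 0.240 by edgeR). Cadps2, which primes dense core vesicles for release, had 40.9, 37.3 and 31.0 CPM in SHNK and 52.7, 94.8 and 54.4 CPM in stressed saline (-0.89 ± 0.20, adjusted p = 0.0194). Cpe, the carboxypeptidase that trims the cut peptides, did not pass and was abundant in all groups, at 4270 ± 217 CPM in SHNK, 4797 ± 507 CPM in stressed saline and 4641 ± 153 CPM in non-stressed saline (SD, n = 3 each). Pcsk2, a more abundant convertase than Pcsk1, was lowest in stressed saline, with means of 302, 259 and 289 CPM in these groups. It was higher in SHNK than in stressed saline by limma voom only, while Scg2, Scg5 and Cadps were so by both DESeq2 and limma voom.

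Of 8 tested genes of peptide breakdown and scavenging, 1 passed in SHNK against stressed saline and 0 in the other 2 comparisons (1 and 1 at unadjusted p under 0.05; by DESeq2, Mme in stressed saline against non-stressed saline). Mme, neprilysin, which cleaves enkephalins, had 0.631, 0.557 and 0.625 CPM in SHNK, 1.32, 4.78 and 1.41 CPM in stressed saline, and 0.899, 0.783 and 0.442 CPM in non-stressed saline. The SHNK and stressed saline groups did not overlap, as for 30.4% of all tested genes (log2 fold change -2.05 ± 0.46, adjusted p = 0.0203). Stressed saline replicate 2, the library with the highest habenula and ependymal sums, was far above the rest. In stressed saline against non-stressed saline the log2 fold change of Mme was 1.82 ± 0.46 (adjusted p = 0.0806). Ackr3, a scavenger receptor for opioid peptides, did not pass, with a mean of 16.6 ± 0.43 CPM in SHNK, 16.1 ± 1.36 CPM in stressed saline and 14.9 ± 0.92 CPM in non-stressed saline.

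None of 10 genes of Gi and Go proteins passed in any of the 3 comparisons by edgeR (0, 3 and 2 at unadjusted p under 0.05, beside 9.45%, 23.3% and 18.3% of all tested genes). Gnai1, an inhibitory alpha subunit, averaged 212 ± 2.63 CPM in SHNK and 179 ± 10.5 CPM in stressed saline (SD, n = 3 each; adjusted p = 0.0815). Gnb5, the beta subunit that pairs with RGS7 and its relatives, averaged 218 ± 8.70 CPM in SHNK and 187 ± 3.73 CPM in stressed saline (adjusted p = 0.0828). Both passed with DESeq2 and with limma voom. Among 14 effectors, 2 passed in SHNK against stressed saline and 0 in the other 2 comparisons by edgeR. At an unadjusted p under 0.05 there were 7 of the 14 in stressed saline against non-stressed saline, and 5 in each of the others. In stressed saline against non-stressed saline 2 of the 14 log2 fold changes were above 0, with a median of -0.13. There Adcy1 averaged 51.1 and 70.3 CPM and was called lower by DESeq2. Kcnj3, a subunit of the inward rectifier potassium channel opened by opioid receptors, rose, with 19.6, 22.6 and 22.8 CPM in SHNK and 14.5, 13.6 and 15.6 CPM in stressed saline (0.57 ± 0.11, adjusted p = 0.0115). Cacna1e, an R-type calcium channel subunit, fell, with 9.40, 8.47 and 9.12 CPM in SHNK and 11.8, 17.3 and 12.5 CPM in stressed saline (-0.63 ± 0.15, adjusted p = 0.0270). Kcnj9, another subunit of that potassium channel, did not pass, with means of 318 ± 5.83 CPM in SHNK, 278 ± 35.5 CPM in stressed saline and 339 ± 29.4 CPM in non-stressed saline.

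Among 16 tested genes of desensitization and regulation, 3 of the 7 RGS genes rose and Gpr139 fell in SHNK against stressed saline. RGS proteins speed the return of Gi and Go proteins to rest and so shorten opioid receptor signals. Rgs7 had 164, 166 and 193 CPM in SHNK, 130, 124 and 123 CPM in stressed saline, and 147, 142 and 151 CPM in non-stressed saline. The 3 groups did not overlap in any pair. Of all tested genes, 30.4%, 21.3% and 12.9% were so separated for SHNK against stressed saline, SHNK against non-stressed saline and the 2 saline groups. The rise of Rgs7 over stressed saline (0.47 ± 0.082, adjusted p = 0.00653 by edgeR) held whichever of the 9 libraries was left out. Rgs4 (0.37 ± 0.084, adjusted p = 0.0207) and Rgs17 (0.38 ± 0.086, adjusted p = 0.0211) rose too. Rgs9 had the opposite sign, at 11.2 ± 1.29 CPM in SHNK and 14.9 ± 1.52 CPM in stressed saline (SD, n = 3 each; -0.42 ± 0.13, adjusted p = 0.0715), and was called lower by DESeq2 and limma voom. Rgs14, Rgs19 and Rgs20 did not pass (adjusted p from 0.607 to 0.747).

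Gpr139, an orphan receptor reported in mice to oppose mu receptor signalling, was the 1 pathway gene called in both of the first 2 comparisons. It had 0.379, 0.497 and 0.788 CPM in SHNK, 3.86, 9.38 and 5.66 CPM in stressed saline, and 1.12, 0.407 and 1.42 CPM in non-stressed saline. All stressed saline libraries were above all others. Of all tested genes, 7.36% were so against non-stressed saline and 15.9% against SHNK. The log2 fold change was -3.53 ± 0.43 in SHNK against stressed saline (adjusted p = 0.000647) and 2.65 ± 0.40 in stressed saline against non-stressed saline (adjusted p = 0.00819), and both calls held whichever of the 9 libraries was left out. The gene is known for expression in the habenula. Within stressed saline its libraries were ordered 2, 3, 1, as was the habenula sum of 783, 458 and 250.1 CPM. The ependymal sum had this order too (236.5, 183 and 152 CPM). In SHNK the orders of Gpr139 and the habenula sum differed, as that sum was 53.4, 47.1 and 53.7 CPM in replicates 1 to 3. In non-stressed saline they were the same (habenula sum 84.4, 80.7 and 145 CPM). The part of habenular, ependymal, hippocampal or astrocytic tissue in the pathway calls was not tested.

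**Figure D5:**
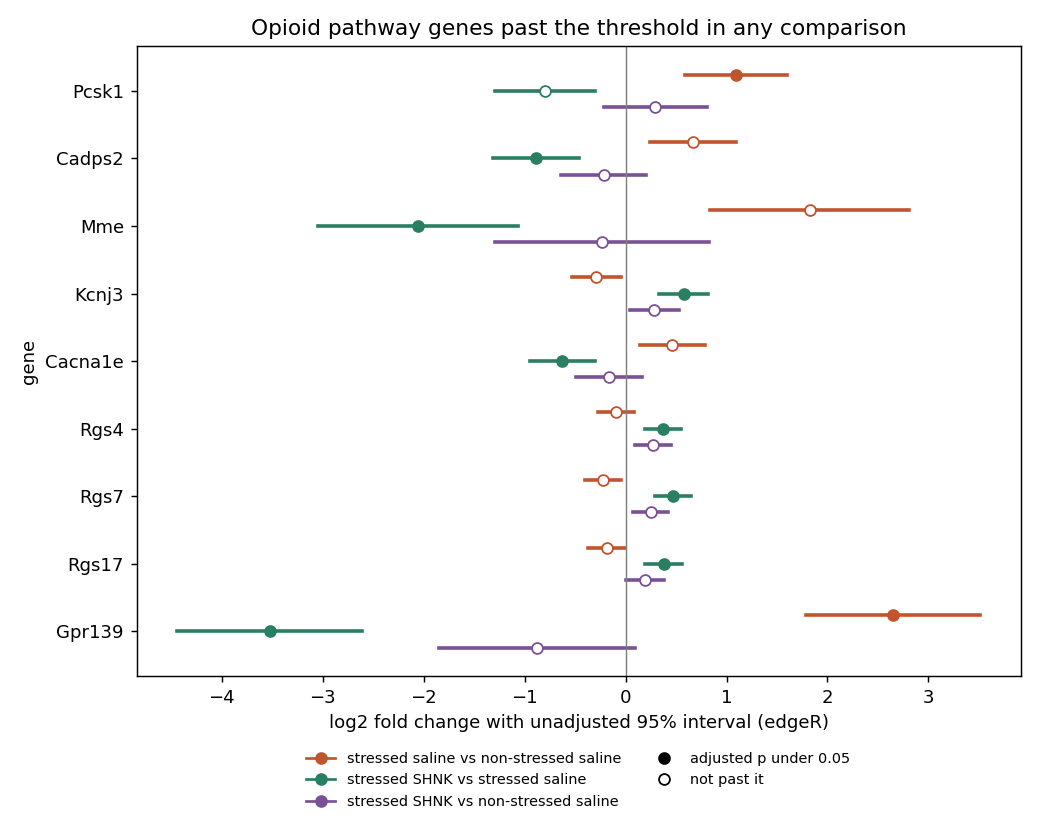
Log2 fold changes (points, filled where the adjusted p was under 0.05) with unadjusted 95% intervals (lines) in the 3 comparisons, for the 9 pathway genes past the threshold in any of them. Gpr139 is filled in both of the first 2 comparisons, with opposite signs, and no point is filled in SHNK against non-stressed saline, whose smaller values carry no weight because the genes were chosen by the first 2 comparisons.

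Some calls in SHNK against stressed saline were lost when 1 library was left out. Cadps2, Mme, Kcnj3 and Cacna1e missed the threshold when stressed saline replicate 2, SHNK replicate 2 or SHNK replicate 3 was left out, with adjusted p between 0.0551 and 0.118. Rgs4 and Rgs17 missed it without any 1 of these or of stressed saline replicates 1 and 3 (adjusted p from 0.0517 to 0.113), although their log2 fold changes stayed at 0.32 to 0.41 (Rgs4) and 0.30 to 0.43 (Rgs17). That of Kcnj3 stayed at 0.53 to 0.64. Without stressed saline replicate 2 the log2 fold change of Mme was -1.17 (adjusted p = 0.0888), that of Cadps2 -0.56 (adjusted p = 0.0662) and that of Cacna1e -0.43 (adjusted p = 0.118), each smaller than with it, while Gpr139 (-3.12, adjusted p = 0.00238) and Rgs7 (0.46, adjusted p = 0.0350) still passed.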

How the data were processed

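RNA-seq libraries made with a SMARTer low-input kit were analysed from 1 table of read counts per gene symbol, deposited by the authors as whole, unnormalized counts. Trimmomatic 0.38, HISAT2 and StringTie, with GRCm38 (mm10), are named in the submitters' processing notes. How reads were assigned, and whether strand was used, is not given in the sources used here.

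Groups came from the labels. Genes were filtered with filterByExpr (minimum count 10, total 15; 762 left out), scaled by TMM and fitted over all 9 libraries in edgeR 4.0.16 (R 4.3.3, glmQLFit and glmQLFTest), with Benjamini-Hochberg adjustment and a threshold of 0.05. Total counts of 32307869 to 51569143 and a common biological coefficient of variation of 0.132 set the precision. DESeq2 1.42.0, limma 3.58.1 (voom with quality weights), other scalings and filters, the 2 compared groups alone, a replicate block and leaving out each library were alternatives. The fit was tested on simulated data. TPM used gene lengths and positions from GENCODE M21 (GRCm38).

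Named genes are the members, every pathway gene past the threshold with a few abundant ones that were not, and the 3 genes closest to each variable member. The members and all lists were chosen with earlier results of these data known.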

Additional observations from a re-analysis of the deposited data

How the results depend on the processing

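Under all 17 alternatives 0 of the 6 opioid genes passed an adjusted p of 0.05 in any comparison. The lowest was 0.0567, for Pnoc in SHNK against stressed saline without stressed saline replicate 3. Of 306 fold changes of these genes, 287 kept their direction and 19 reversed, none past the threshold. With limma voom the log2 fold change in SHNK against non-stressed saline was -0.028 for Oprk1 and -0.083 for Pdyn.

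Leaving out 1 library at a time gave these ranges of log2 fold change where the sign reversed. In stressed saline against non-stressed saline they were -0.48 to 0.0083 (Oprm1), -0.24 to 0.071 (Oprk1), -0.090 to 0.029 (Oprl1) and -0.18 to 0.44 (Pnoc). In SHNK against stressed saline they were -0.065 to 0.21 (Oprk1) and -0.72 to 0.15 (Penk). In SHNK against non-stressed saline they were -0.021 to 0.29 (Oprm1), -0.14 to 0.14 (Oprk1), -0.24 to 0.67 (Penk) and -0.33 to 0.51 (Pdyn). DESeq2 gave no adjusted p for Pdyn in the last comparison.

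Over all genes, stressed saline against non-stressed saline gave 213 calls, 473 with DESeq2, 102 with limma voom and 40 to 306 with 1 library left out. SHNK against stressed saline gave 1167, 1990, 2377 and 176 to 1385. SHNK against non-stressed saline gave 1 call, 989 with DESeq2, 0 with upper-quartile scaling, with no filter or with a filter of 1 CPM in 3 libraries, 9 with the 2 groups alone, and 0 to 749 with 1 library left out, the 749 without non-stressed saline replicate 2. Of the 60 pathway genes in stressed saline against non-stressed saline, edgeR called 2 higher, DESeq2 3 higher and 1 lower, limma voom 1 higher, and edgeR with 1 library left out between 1 higher and 4 higher with 1 lower. In SHNK against stressed saline edgeR called 4 higher and 4 lower, DESeq2 9 and 7, limma voom 11 and 7, and edgeR with 1 library left out between 1 and 1 (without stressed saline replicate 2, SHNK replicate 2 or SHNK replicate 3) and 6 and 5 (without non-stressed saline replicate 2). In SHNK against non-stressed saline only DESeq2 (2 and 5) and edgeR without non-stressed saline replicate 2 (0 and 3) made calls. The cause of these differences was not tested.

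With the replicate number as a block the comparisons gave 177, 878 and 6 calls, with 0 of the 6 opioid genes in each, and Pcsk1 missed the threshold under stress (adjusted p = 0.0631). Same-numbered libraries correlated across genes at -0.10 to 0.11 (log2 CPM less the group mean). Differently numbered libraries were not compared and the labels name no pairing, so this cannot tell whether the numbers pair libraries. Counts of 41 to 202 reads limit Pdyn and Oprm1.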
